A study of Mus musculus with 15 samples.

Results

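Voltage-gated and leak ion channel genes were taken as all probe sets annotated to 1 gene whose symbol begins with Kcn, Scn, Cacna, Cacnb, Cacng, Clcn or Hcn. The rule found 69 of the 8251 genes with a probe set of their own, and 89 of the 12488 probe sets, on the Affymetrix MG_U74Av2 mouse array. Of these, 32 probe sets of 23 genes had a present call on 3 or more of the 15 arrays and were tested, and the other 57 are listed below as not detected. The rule used symbols and detection calls only, and no comparison between groups. The tissue was olfactory epithelium of male C57Bl/6 mice of 6 weeks, and the operation was bilateral olfactory bulbectomy (OBX), the removal of both olfactory bulbs, which takes away the target of the olfactory sensory neurons. The groups were OBX mice at day 1, day 5 and day 7 after surgery, sham-operated mice at day 5, and untreated mice, with 3 arrays each. Every array carried a pool of 5 µg of RNA from each of 3 mice, so a p-value here measures the spread between pools and not between single mice. No sham group of day 1 or day 7 was analysed here, so those OBX groups were set against untreated mice, and only OBX day 5 had a sham group of its own day.

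Voltage-gated channels open or close with the membrane potential: sodium channels start the action potential, potassium channels end it and set its rate, and calcium channels couple it to transmitter release. Leak and inward rectifier potassium channels hold the resting potential, HCN channels carry a cation current on hyperpolarization, and the Clcn family holds plasma membrane chloride channels and chloride-proton exchangers of endosomes and lysosomes. Olfactory sensory neurons open a cyclic nucleotide-gated channel on odour binding, and voltage-gated channels in their soma and axon turn that current into spikes sent to the olfactory bulb.

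Arrays were scaled to a common trimmed mean, and 49.1% to 58.8% of probe sets were present on each. The tissue label was checked with Omp, the olfactory marker protein of mature olfactory sensory neurons, which was present on all 15 arrays. Its signals were 31600.3, 28359.3 and 27411.3 on OBX day 1 arrays, 19232.5, 12480.0 and 5420.4 on OBX day 5 arrays and 13207.9, 13146.1 and 13522.5 on OBX day 7 arrays, against 39155.8, 39188.4 and 38394.5 on sham arrays and 38274.5, 41307.1 and 37995.6 on untreated arrays. Of 5 markers of horizontal basal cells, the keratins Krt5, Krt14 and Krt15 were present on no array, and Trp63 and Icam1 on all 15. OBX day 5 replicate 1 stood apart from its group, with an estimated array weight of 0.0693, and the median SD of log2 signals within a group was 0.28 at OBX day 5, against 0.13 to 0.15 in the other groups. Calls that changed when that array was left out are given beside the results they touch. Leaving it out also changed calls in comparisons that do not use it, since all groups share 1 estimate of the spread. All sham and untreated arrays and OBX day 1 replicates 1 and 2 were scanned on 1 day, and OBX day 1 replicate 3 and all OBX day 5 and OBX day 7 arrays on another.

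Most channel genes were not detected in this tissue. Of the channel probe sets, 36.0% passed the detection filter, against 60.4% of all non-control probe sets. Present on no array were 51, and 6 were present on 1 or 2 arrays. Among pore-forming calcium channel subunits Cacna1a, Cacna1b, Cacna1e, Cacna1g, Cacna1h and Cacna1s were not tested, and among auxiliary calcium channel subunits Cacna2d3, Cacng1 and Cacng2. The sodium channels Scn1a, Scn3a, Scn7a and Scn10a did not reach the filter. Nor did the voltage-gated potassium channels Kcna1, Kcna3, Kcna4, Kcna6, Kcna7, Kcnc1, Kcnd1, Kcnd3, Kcnh1 and Kcns1, or their auxiliary subunits Kcnab1, Kcnab3, Kcne1 and Kcne1l. The calcium-activated channel group lost Kcnn1, Kcnu1 and the auxiliary subunit Kcnmb1. Undetected inward rectifiers were Kcnj2, Kcnj3, Kcnj4, Kcnj5, Kcnj6, Kcnj8, Kcnj9, Kcnj11 and Kcnj12, and undetected leak channels Kcnk3, Kcnk4 and Kcnk7. Clcn1, Clcn2 and Hcn3 complete the undetected channels, and Scnm1, which shares the prefix without being a channel subunit, was not detected either. In all 46 genes had no tested probe set. Another 5 genes, Hcn2, Kcna5, Kcnd2, Kcnj1 and Scn8a, had a tested and an untested one. At the edge of the filter no probe set was present on exactly 3 arrays, and the 2 just outside it, Hcn2 94195_r_at and Scn1a 162255_s_at, were present on 2 arrays. A missing call does not show a missing transcript, and 4 untested probe sets had mean signals over 1000.

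**Figure D1:**
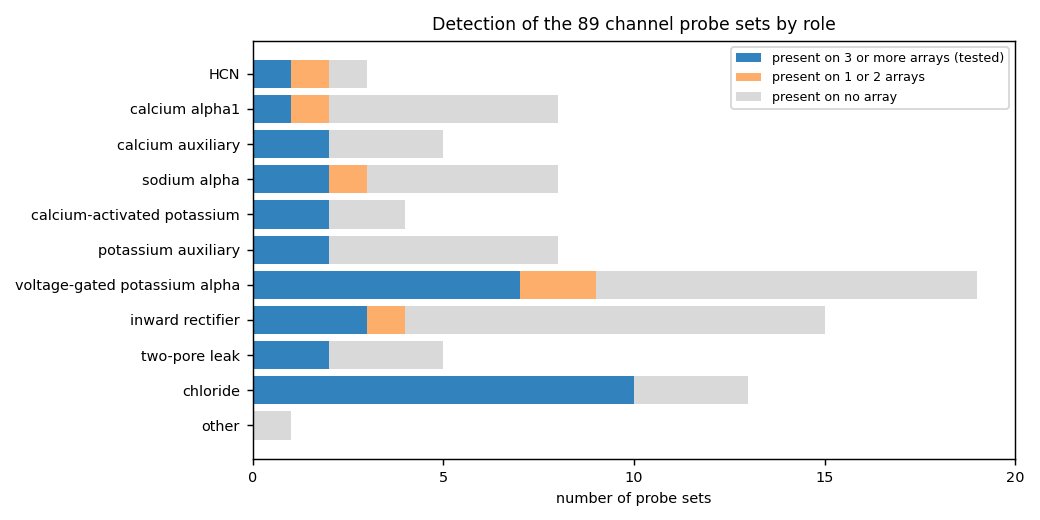
Number of channel probe sets (horizontal axis) in each role group, split by the number of arrays that called them present. The Clcn group had 10 of 13 probe sets tested, whereas the inward rectifiers had 3 of 15 and the voltage-gated potassium alpha subunits 7 of 19.

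After OBX the detected channel probe sets that changed were mostly lower. At OBX day 5, against sham, 11 of 32 channel probe sets fell and 2 rose (limma, adjusted p under 0.05), where 9.19% of all 7508 tested probe sets fell and 11.8% rose. At OBX day 7, against untreated mice, 10 fell and 3 rose, where 6.02% of all tested probe sets fell and 7.01% rose. At OBX day 1, against untreated mice, 2 fell and 0 rose, where 0.666% of all tested fell and 1.8% rose, and 12 of the 32 had an unadjusted p under 0.05, as did 14.8% of all tested. Leaving out any 1 of the 6 arrays of that comparison left 0 lower. Leaving out OBX day 5 replicate 1 gave 6 lower and 2 higher at OBX day 1 (3.36% and 5.03% of all tested), 14 lower and 4 higher at OBX day 5 (11.8% and 15.5% of all tested), and 12 lower and 6 higher at OBX day 7 (11.6% and 15.7% of all tested). The lower ones at OBX day 1 were then Hcn2, Cacna2d1, Cacnb2, Scn8a, Kcna2 and Kcna5, and the higher ones Clcn3 94465_g_at and Kcnk1. The median log2 change of the 32 was −0.18 at OBX day 1, −0.30 at OBX day 5 and −0.32 at OBX day 7, and that of all tested probe sets was 0.00, −0.01 and 0.03. Every array of the OBX group lay below every control array for 11 of the 32 at OBX day 1, 15 at OBX day 5 and 14 at OBX day 7, where 12.0%, 16.0% and 18.1% of all tested probe sets did. Across the 3 comparisons 15 probe sets of 14 genes were called at least once, and 17 in none. 9 probe sets of 8 genes were lower at both OBX day 5 and OBX day 7, and 2 were higher at both. The OBX day 1 and OBX day 7 comparisons share their untreated arrays. How many of all tested probe sets were called at least once, or in the same direction at both days, was not counted. By the F test over the 5 groups 14 of the 32 differed, where 19.3% of all tested probe sets did. In bulk tissue, fewer cells of a type and less RNA per cell cannot be told apart.

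**Figure D2:**
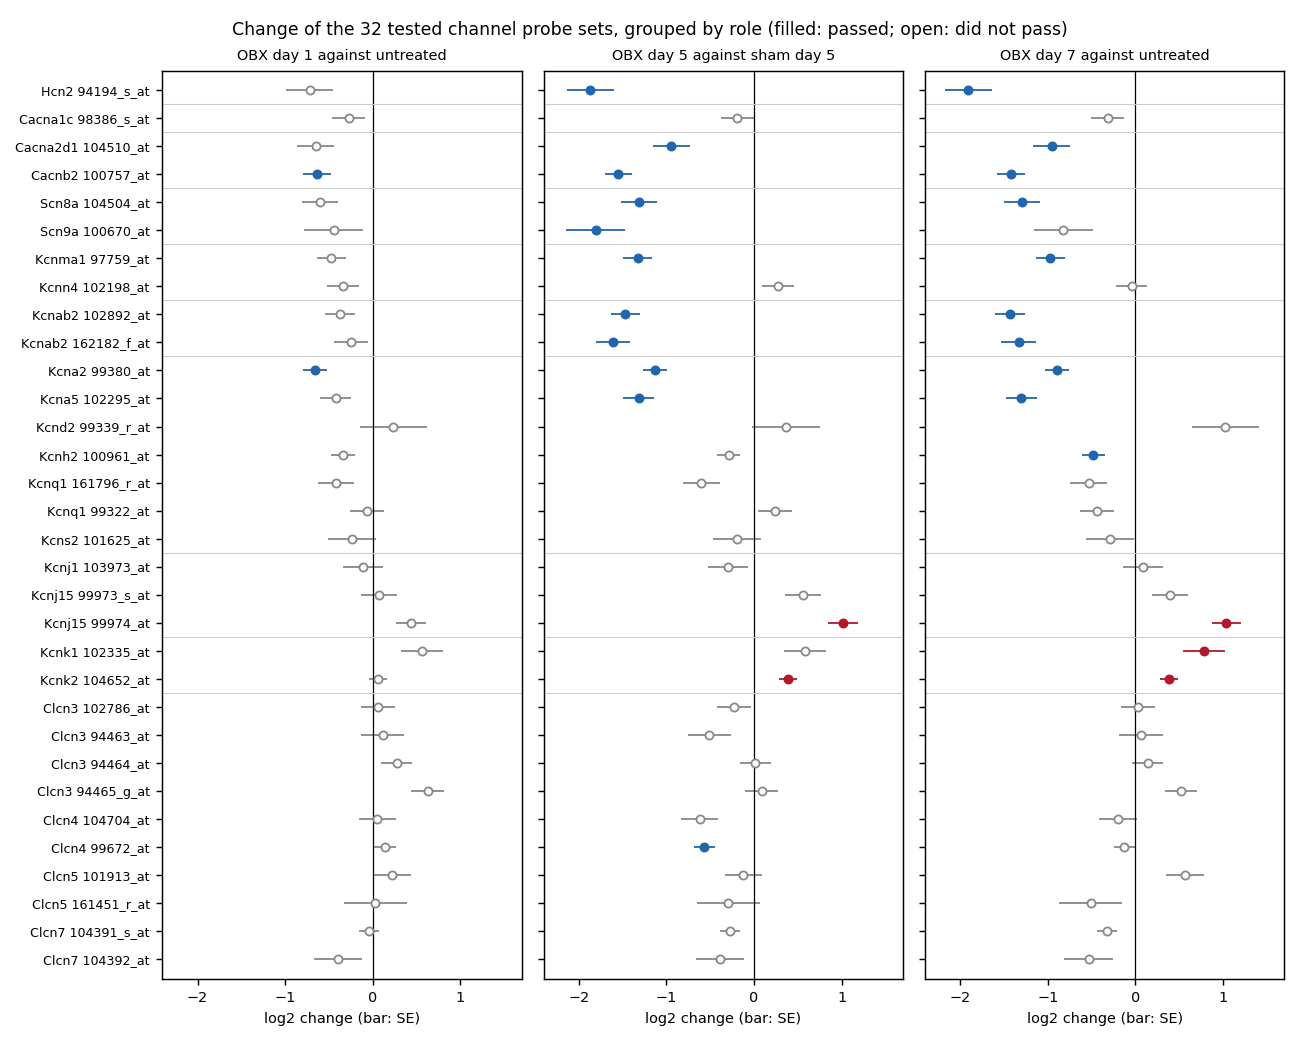
Log2 change with its SE for the 32 tested channel probe sets in OBX day 1, day 5 and day 7 against their controls, ordered by role, with filled points for those that passed. Only Cacnb2 and Kcna2 are filled at OBX day 1, 9 lower and 2 higher points are filled at both OBX day 5 and OBX day 7, Scn9a and Clcn4 99672_at at OBX day 5 without OBX day 7, and Kcnh2 and Kcnk1 at OBX day 7 without OBX day 5.

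The 250 bases upstream of the RefSeq transcript start (GRCm38.p6) are shown for the 6 genes called in the same direction at both days that have 1 listed start, 5 of them lower and Kcnj15 higher, so that the regulatory sequence stands beside the change. Lower-case bases run 5′ to 3′ on the gene's strand, and capitals mark CCCNNGGG, the core of the sites bound by the Ebf transcription factors of olfactory neurons. This motif reads the same on both strands, and overlapping matches were counted separately.
Hcn2 promoter, chr10:79716384-79716633, plus strand: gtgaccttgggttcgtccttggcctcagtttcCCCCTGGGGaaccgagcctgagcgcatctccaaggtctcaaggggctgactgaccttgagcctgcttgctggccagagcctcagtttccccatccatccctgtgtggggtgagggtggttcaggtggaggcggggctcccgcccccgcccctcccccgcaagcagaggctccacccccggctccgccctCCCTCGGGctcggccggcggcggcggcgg
Kcnma1 promoter, chr14:24004206-24004455, minus strand: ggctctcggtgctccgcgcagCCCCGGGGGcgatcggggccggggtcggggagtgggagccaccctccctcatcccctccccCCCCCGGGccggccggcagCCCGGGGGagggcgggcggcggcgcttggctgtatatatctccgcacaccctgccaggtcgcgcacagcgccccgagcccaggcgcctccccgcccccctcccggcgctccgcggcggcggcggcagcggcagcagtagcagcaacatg
Cacna2d1 promoter, chr5:15934441-15934690, plus strand: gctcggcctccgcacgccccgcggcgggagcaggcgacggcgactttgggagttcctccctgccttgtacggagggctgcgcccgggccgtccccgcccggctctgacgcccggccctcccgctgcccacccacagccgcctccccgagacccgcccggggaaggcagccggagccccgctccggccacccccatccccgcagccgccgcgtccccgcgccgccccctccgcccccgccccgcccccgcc
Kcna2 promoter, chr3:107101317-107101566, plus strand: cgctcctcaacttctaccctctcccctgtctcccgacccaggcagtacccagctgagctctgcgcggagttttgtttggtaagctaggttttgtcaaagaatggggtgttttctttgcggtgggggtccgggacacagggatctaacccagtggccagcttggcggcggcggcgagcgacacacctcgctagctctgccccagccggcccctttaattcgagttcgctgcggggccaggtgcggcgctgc
Kcna5 promoter, chr6:126535556-126535805, minus strand: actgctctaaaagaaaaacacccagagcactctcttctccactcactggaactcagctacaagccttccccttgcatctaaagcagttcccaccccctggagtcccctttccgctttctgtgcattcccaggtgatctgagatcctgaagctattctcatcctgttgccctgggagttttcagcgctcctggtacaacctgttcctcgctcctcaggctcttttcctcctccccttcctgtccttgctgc
Kcnj15 promoter, chr16:95257308-95257557, plus strand: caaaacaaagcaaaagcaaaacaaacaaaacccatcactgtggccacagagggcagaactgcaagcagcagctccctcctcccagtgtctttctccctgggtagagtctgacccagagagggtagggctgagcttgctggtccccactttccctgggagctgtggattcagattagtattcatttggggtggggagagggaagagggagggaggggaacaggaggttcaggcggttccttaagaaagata
CCCNNGGG occurred in 3882 of 32851 promoter windows of this length (11.8%) and in 12 of 70 windows of the channel genes (17.1%), of which 53 of 69 matched by symbol. It occurred in 2 of the 12 windows of the 8 genes lower at both days, that of Hcn2 with 3 matches and that of Kcnma1 with 4. A match is a string of letters and was not tested for binding. GC content of the printed windows ran from 53.2% for Kcna5 and Kcnj15 to 82.4% for Cacna2d1.

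Hcn2 and both tested auxiliary calcium channel genes fell at OBX day 5 and OBX day 7. Hcn2, a hyperpolarization-activated cation channel, had signals of 1195.0, 673.4 and 402.5 on OBX day 5 arrays, against 2765.2, 2204.6 and 2581.2 on sham arrays. The OBX day 5 arrays all lay below the sham arrays, and the change was −1.87 ± 0.27 (log2 ± SE, 3.65-fold lower, limma adjusted p = 0.000256). On OBX day 7 arrays Hcn2 had 720.2, 730.3 and 588.2, against 2525.7, 2496.2 and 2573.1 on untreated arrays, a change of −1.90 ± 0.27 (adjusted p = 0.000393). OBX day 1 arrays lay between, at 1388.2, 1690.2 and 1553.7, without overlap with either, but the day 1 change of −0.72 did not pass (adjusted p = 0.208). The same change passed in a fit without OBX day 5 replicate 1. The second Hcn2 probe set, 94195_r_at, was present on only 2 arrays. It had 5112.3, 3008.3 and 2854.0 on OBX day 5 arrays, against 6484.9, 6939.4 and 7246.4 on sham arrays, with no overlap, and with no detection filter its change was −0.96 (adjusted p = 0.00247).

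Cacnb2 encodes a beta subunit that brings the calcium channel pore to the membrane. It was lower in all 3 OBX groups. Its signals were 677.5, 863.3 and 1108.7 on OBX day 5 arrays, against 2540.9, 2368.4 and 2692.0 on sham arrays (−1.55 ± 0.16, adjusted p = 2.1e-05). OBX day 1 arrays gave 1486.4, 1631.1 and 1927.7 and OBX day 7 arrays 959.3, 1034.6 and 931.6, against 2455.9, 2917.8 and 2467.3 on untreated arrays. No OBX array overlapped a control array, and the changes were −0.64 ± 0.16 at day 1 (adjusted p = 0.0493, and from 0.000274 to 0.172 over 26 alternative settings, of which 8 passed) and −1.42 ± 0.16 at day 7 (adjusted p = 7.86e-05). Cacna2d1, the alpha2-delta subunit that carries channels to the cell surface, had 210.4, 286.7 and 317.8 on OBX day 5 arrays, against 593.5, 403.2 and 571.6 on sham arrays (−0.94 ± 0.21, adjusted p = 0.00573). At OBX day 7 it had 261.0, 340.6 and 307.5, against 535.5, 579.8 and 641.7 on untreated arrays, again with no overlap (−0.96 ± 0.21, adjusted p = 0.0087). The pore subunit Cacna1c, an L-type channel, was present on 9 arrays, and its changes of −0.19 at OBX day 5 and −0.32 at OBX day 7 did not pass.

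Both tested sodium channel genes were lower at OBX day 5. Scn9a, known in mouse as a main sodium channel of olfactory sensory neurons, had signals of 428.2, 1443.7 and 896.2 on OBX day 5 arrays, against 3142.7, 2729.5 and 2761.8 on sham arrays. The groups did not overlap (−1.81 ± 0.34, adjusted p = 0.00173), and the lowest value was on OBX day 5 replicate 1, without which the change was −1.34. Scn9a at OBX day 7 had 1248.2, 1568.3 and 1386.8, against 1785.2, 2679.0 and 3129.2 on untreated arrays, also without overlap, but the change of −0.82 ± 0.34 did not pass (adjusted p = 0.125). It passed in a fit without OBX day 5 replicate 1. Scn8a, the sodium channel of axon initial segments and nodes, had 240.7, 385.4 and 335.7 on OBX day 5 arrays, against 870.6, 747.5 and 739.4 on sham arrays (−1.32 ± 0.20, adjusted p = 0.000497). On OBX day 7 arrays it had 466.0, 353.7 and 269.7, against 845.1, 957.3 and 808.9 on untreated arrays (−1.29 ± 0.20, adjusted p = 0.000969). Scn8a was called present on 1 of 3 OBX day 5 arrays and 2 of 3 OBX day 7 arrays, against all 3 in each control group, and its other probe set, 104505_at, was present on no array.

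Among potassium channels, the large-conductance calcium-activated channel Kcnma1 fell. It had 902.3, 1280.1 and 1060.5 on OBX day 5 arrays, against 3395.7, 2455.0 and 2319.5 on sham arrays (−1.33 ± 0.16, adjusted p = 8.56e-05). On OBX day 7 arrays it had 1646.1, 1517.8 and 1270.4, against 2985.8, 2954.8 and 2704.6 on untreated arrays (−0.97 ± 0.16, adjusted p = 0.00146). Neither pair of groups overlapped. Kcnn4, the intermediate-conductance calcium-activated channel known from blood cells and epithelia, was present on 10 arrays and did not pass at any day.

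Kcnab2 encodes a cytoplasmic beta subunit that binds voltage-gated potassium channels, and both of its probe sets fell. Probe set 102892_at had 2354.1, 1707.8 and 1298.4 on OBX day 5 arrays, against 5377.7, 4458.1 and 4616.0 on sham arrays (−1.47 ± 0.17, adjusted p = 5.26e-05). Probe set 162182_f_at, whose suffix marks probes that similar sequences can share, had 797.5, 432.2 and 413.5 on OBX day 5 arrays, against 1616.7, 1664.4 and 1504.3 on sham arrays (−1.61 ± 0.20, adjusted p = 8.04e-05). At OBX day 7 the changes were −1.43 ± 0.17 and −1.33 ± 0.20, and neither probe set overlapped its control at either day. The OBX day 1 changes, −0.37 and −0.25, did not pass.

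The pore subunits Kcna2 and Kcna5, both of the Shaker family of delayed rectifiers that Kcnab2 binds, fell as well. Kcna5 had 2984.4, 2151.7 and 1526.5 on OBX day 5 arrays, against 5702.9, 5592.1 and 4759.3 on sham arrays (−1.32 ± 0.18, adjusted p = 0.000172). OBX day 7 arrays had 2185.1, 1967.1 and 2294.2 for Kcna5, against 5109.8, 5587.0 and 5186.1 on untreated arrays (−1.30 ± 0.18, adjusted p = 0.000329). Kcna2 had 558.9, 702.3 and 493.1 on OBX day 5 arrays, against 1387.9, 1259.5 and 1163.8 on sham arrays (−1.13 ± 0.14, adjusted p = 7.97e-05). It was 1 of the 2 genes already lower at OBX day 1, with 731.1, 814.6 and 759.7, against 1181.6, 1240.5 and 1228.2 on untreated arrays (−0.66 ± 0.14, adjusted p = 0.0193). That day 1 change passed in 19 of 26 alternative settings, with limma adjusted p up to 0.091. Kcna2 was called present on 2 of 3 OBX day 1 arrays. Its OBX day 7 signals were 597.3, 656.8 and 715.8 (−0.89 ± 0.14, adjusted p = 0.000819). All these groups were apart from their controls. Kcnh2, a channel that repolarizes heart muscle, fell at OBX day 7. It had 1088.2, 917.4 and 1111.0, against 1584.8, 1293.5 and 1464.5 on untreated arrays (−0.48 ± 0.13, adjusted p = 0.0273), and was called present on 1 array of each of these groups. Its OBX day 5 change was −0.29 (adjusted p = 0.131), it was −0.40 and passed without OBX day 5 replicate 1, and the difference between the days was not called.

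**Figure D3:**
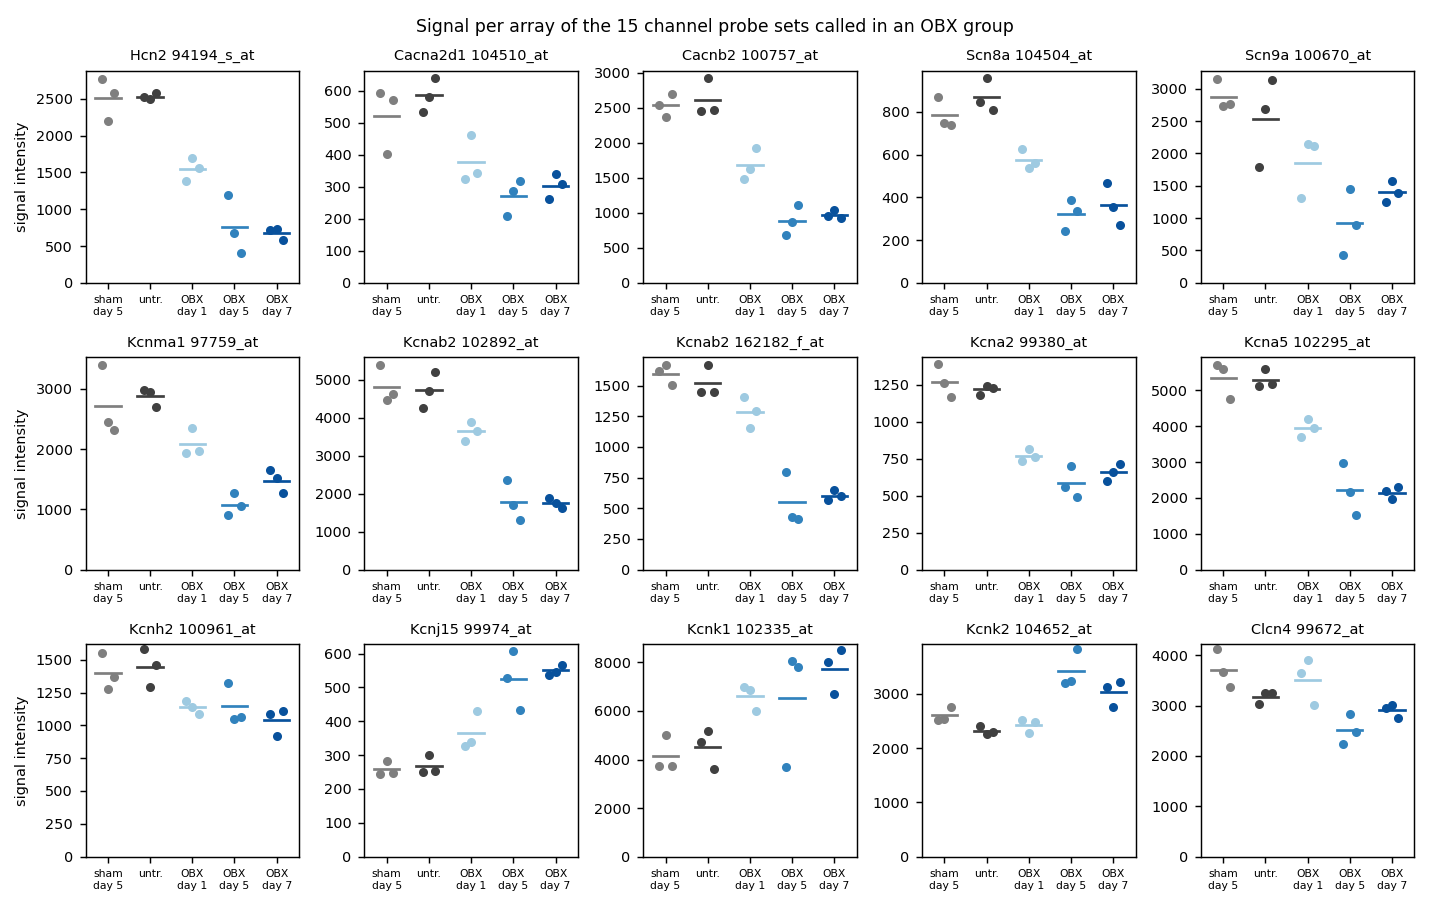
Signal intensity (vertical axes from 0) on each array for the 15 channel probe sets called in at least 1 OBX group, with sham day 5 and untreated arrays at the left and OBX days 1, 5 and 7 after them; points are arrays and bars are group means. Hcn2, Cacnb2, both Kcnab2 probe sets and Kcna5 have lower means at OBX day 1 than in both controls and lower ones again at OBX day 5, and Kcnj15 lies higher at OBX days 5 and 7.

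The genes that rose were potassium channels of the inward rectifier and leak classes. Kcnj15, an inward rectifier, had 527.8, 608.9 and 433.7 by probe set 99974_at on OBX day 5 arrays, against 244.6, 282.2 and 245.6 on sham arrays (1.01 ± 0.17, 2.02-fold higher, adjusted p = 0.000849). On OBX day 7 arrays it had 537.3, 546.9 and 565.6, against 250.5, 300.7 and 254.2 on untreated arrays (1.04 ± 0.17, adjusted p = 0.00127). Neither pair overlapped. Its other probe set, 99973_s_at, changed by 0.55 at OBX day 5 (adjusted p = 0.0671) and 0.39 at OBX day 7 and did not pass. Without OBX day 5 replicate 1 its OBX day 5 change was 0.66 and passed. That probe set was present on 0 of 6 sham and untreated arrays and on all OBX day 5 and OBX day 7 arrays.

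Kcnk2, a mechanically and lipid-gated leak channel, had 3196.7, 3237.8 and 3835.9 on OBX day 5 arrays, against 2522.7, 2539.8 and 2758.0 on sham arrays (0.39 ± 0.10, adjusted p = 0.0154). At OBX day 7 it had 3124.7, 2766.6 and 3218.0, against 2417.9, 2254.4 and 2300.8 on untreated arrays (0.38 ± 0.10, adjusted p = 0.0253). Against sham, the OBX day 7 change was 0.22 and did not pass (adjusted p = 0.182). Over 26 alternative settings the Kcnk2 rise passed in 22 at OBX day 5 and in 20 at OBX day 7, with the same direction in all. Kcnk1, a weakly conducting leak channel, passed at OBX day 7 with 8008.4, 6686.9 and 8503.2, against 4719.5, 5195.6 and 3629.1 on untreated arrays (0.79 ± 0.24, adjusted p = 0.0457). At OBX day 5 its signals of 3709.5, 8041.6 and 7818.1 overlapped the sham signals of 3722.9, 4991.8 and 3733.3, with replicate 1 at the sham level (0.58, adjusted p = 0.103). Without that replicate the Kcnk1 change at OBX day 5 was 0.95 and passed. The OBX day 7 rise of Kcnk1 passed in 11 of 26 alternative settings, with adjusted p from 0.000368 to 0.602, and its direction was the same in all 26.

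The Clcn genes, exchangers and channels of endosomes and lysosomes in the case of Clcn3, Clcn4, Clcn5 and Clcn7, were the best detected group. Of 10 tested probe sets, 1 fell at OBX day 5 and none passed at OBX day 1 or OBX day 7 (limma; their log2 changes lay between −0.53 and 0.57 at OBX day 7). Without OBX day 5 replicate 1 more of them passed: Clcn7 104391_s_at at OBX day 5 (−0.35) and OBX day 7 (−0.32), Clcn3 94465_g_at at OBX day 1 (0.63) and OBX day 7 (0.52), and Clcn5 101913_at at OBX day 7 (0.57). Clcn4 by probe set 99672_at had 2231.3, 2830.6 and 2473.8 on OBX day 5 arrays, against 4124.4, 3668.9 and 3363.6 on sham arrays (−0.57 ± 0.12, adjusted p = 0.00452). Set against untreated mice instead, this change was −0.34 and did not pass (adjusted p = 0.0608). The other Clcn4 probe set, 104704_at, changed by −0.62 ± 0.21 and just missed the threshold (adjusted p = 0.0503). The 4 probe sets of Clcn3, an endosomal exchanger, had OBX day 5 changes from −0.51 to 0.09. On all 4 of them OBX day 5 replicate 1 was the lowest array of its group, with 691.2 by probe set 94463_at where the other arrays had 1678.6 and 1699.2.

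No other tested channel passed against its control with all arrays in the fit. These were Kcnj1, an inward rectifier known from kidney, Kcnq1, a voltage-gated potassium channel of epithelia and heart, Kcnd2, an A-type channel, and Kcns2, a silent subunit that modifies others. The 2 Kcnq1 probe sets moved in opposite directions at OBX day 5, by −0.60 (161796_r_at, adjusted p = 0.0531) and 0.23 (99322_at, adjusted p = 0.42). Without OBX day 5 replicate 1 the first was −0.67 and passed. Kcnd2 had a change of 1.03 ± 0.38 at OBX day 7 (adjusted p = 0.093) on signals of 223.7, 154.4 and 231.9, against 99.6, 70.0 and 135.9 on untreated arrays. That change also passed in the fit without OBX day 5 replicate 1.

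The OBX groups were also set against each other. At OBX day 5, against OBX day 1, 8 channel probe sets were lower and 1 was higher, where 3.86% of all tested probe sets were lower and 3.96% higher. The lower ones were Hcn2 (−1.16), Cacnb2 (−0.95), Kcnma1 (−0.96), Clcn4 99672_at (−0.48), Kcnab2 102892_at (−1.07) and 162182_f_at (−1.29), Scn8a (−0.87) and Kcna5 (−0.88), and the higher one was Kcnk2 (0.49). All 8 were also lower at OBX day 5 against sham. Cacna2d1, Kcna2 and Scn9a, lower at OBX day 5 against sham, did not pass against OBX day 1. Between OBX day 7 and OBX day 5, 0 of 32 passed by limma and 3 had an unadjusted p under 0.05, and 0.0% of all tested probe sets passed and 8.0% had such an unadjusted p. Kcnma1, for example, changed by 0.46 (adjusted p = 0.563). For sham day 5 against untreated mice 0 of 32 passed, 0 had an unadjusted p under 0.05, and 0.0% of all tested probe sets passed and 1.49% had such an unadjusted p. The change of the channels between these controls ran from −0.40 (Kcnq1 99322_at) to 0.26 (Clcn5 161451_r_at). Of the 11 probe sets lower at OBX day 5 against sham, 10 were also lower against untreated mice, all but Clcn4 (8.95% of all tested probe sets were lower there). All 10 lower at OBX day 7 were also lower against sham (5.86% of all tested). The comparisons with either control share their OBX arrays, and no channel passed between the controls, so these repeats are not independent. The shares in brackets are of all tested probe sets, not of those already called against the first control. The difference in change between OBX day 5 and OBX day 1 was itself called for 2 of 32 (1.48% of all tested), that between OBX day 7 and OBX day 1 for 5 lower (2.25% of all tested lower) and that between OBX day 7 and OBX day 5 for 0 (0.0% of all tested; smallest adjusted p = 0.822). Without OBX day 5 replicate 1 the first count was 6, all lower (4.08% of all tested in either direction), with Hcn2, Cacnb2, Clcn4 99672_at, both Kcnab2 probe sets and Kcna5. The second was then 7 lower and 2 higher (5.11% and 6.06% of all tested), with Kcnma1 and Scn8a added to the lower ones and Kcnj15 99974_at and Kcnk2 higher.

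The falls ran beside a fall of mature neuron markers. The summed signal of the 8 measured genes of a list of 10 markers of mature olfactory sensory neurons was 100440 to 107030 at OBX day 1, 42242 to 65863 at OBX day 5 and 60821 to 66465 at OBX day 7, against 129940 to 136650 in sham and 127120 to 139170 in untreated mice. Omp itself changed by −0.43 at OBX day 1, −1.83 ± 0.29 at OBX day 5 and −1.56 ± 0.29 at OBX day 7, and the first did not pass (adjusted p = 0.55). Among the OBX day 5 arrays Omp was highest on replicate 1 and lowest on replicate 3. Hcn2, Kcna5 and both Kcnab2 probe sets shared that order, 4 of the 11 lower probe sets. In contrast 6 of the 11, those of Cacna2d1, Cacnb2, Clcn4, Kcnma1, Scn8a and Scn9a, were lowest on replicate 1. How many of all tested probe sets had either order was not counted. Replicate 1 is the array that stood apart, and an order over so few arrays does not sort the channels into groups. Without replicate 1 all 11 falls and both rises at OBX day 5 still passed, with falls from −2.27 to −0.49.

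Summed signals of markers of other cell types also differed between these groups. The summed signal of 10 macrophage markers was 20735 to 21194 at OBX day 1, 30600 to 31873 at OBX day 5 and 21131 to 24554 at OBX day 7, against 16595 to 19550 in sham and 15316 to 18047 in untreated mice, with Adgre1 and Fcgr3 present on no array. The 7 neuronal progenitor markers summed to 16714 to 19243 at OBX day 1, 25051 to 26828 at OBX day 5 and 27938 to 33368 at OBX day 7, against 16501 to 17387 in sham and 15616 to 18663 in untreated mice. Endothelial and smooth muscle markers summed to 23810 to 27750, 25528 to 33297 and 24610 to 26204 at OBX days 1, 5 and 7, against 17436 to 17882 in sham and 17427 to 21474 in untreated mice, with Pecam1 and Des present on no array. Ensheathing and Schwann glia markers summed to 33846 to 39381, 44893 to 53175 and 38900 to 47026 at OBX days 1, 5 and 7, against 36023 to 40074 in sham and 33610 to 36466 in untreated mice. The 8 neutrophil markers summed to 31676 to 36148, 39645 to 46690 and 30192 to 40373 at OBX days 1, 5 and 7, against 25211 to 34658 in sham and 21893 to 32238 in untreated mice, with Csf3r present on no array. Cell cycle genes summed to 9351.1 to 9859.3, 13226 to 14529 and 13543 to 15133 at OBX days 1, 5 and 7, against 9405.9 to 9629.1 in sham and 8836.8 to 9337.9 in untreated mice. Macrophage, progenitor, endothelial, neutrophil, glia and cell cycle sums on OBX day 5 arrays were thus all above those on sham arrays. Markers of immature olfactory sensory neurons summed to 76769 to 84045, 82492 to 94392 and 92278 to 105000 at OBX days 1, 5 and 7, against 78486 to 82451 in sham and 80738 to 84425 in untreated mice. Bone and cartilage markers summed to 30914 to 34808 at OBX day 5, against 22881 to 26105 in sham mice, with Col2a1 present on no array. Ciliated respiratory cell markers were lower, at 2896.7 to 3254.5 on OBX day 5 arrays, against 3701.2 to 4025.8 on sham arrays, with Tppp3 present on no array. T cell and B cell markers varied within groups, from 2043.0 to 17820 at OBX day 5 and from 1495.3 to 19569 at OBX day 7, against 1394.1 to 2074.6 in sham and 1556.3 to 2497.7 in untreated mice, with 7 of 8 present on no array. Sustentacular cell, Bowman gland, horizontal basal cell, erythrocyte and skeletal muscle sums overlapped between OBX day 5 and sham. The skeletal muscle sum was highest on OBX day 5 replicate 3, at 24887, where OBX day 5 replicates 1 and 2 had 11037 and 7822.7. Up to 8 of the 15 muscle genes were present on an OBX day 5 array, against at most 2 on an array of any other group. Myh2, Myh4, Tnni2, Ckm, Mylpf, Actn3 and Tnni1 were present on no array. The part of these markers in the channel results was not tested.

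Scan day separated nearly the same arrays as the comparisons did, apart from OBX day 1. OBX day 1 was the only group scanned on both days, so a scan day block rests on its replicate 3 against its replicates 1 and 2. Each OBX day 5 or day 7 estimate is thus shifted by the deviation of 1 array. Large changes could therefore hardly lose their sign. With scan day as a block all 13 called channel values at OBX day 5 and all 13 at OBX day 7 had the same sign, but 2 and 1 of them passed. Those were Cacnb2 at OBX day 5 (−1.86, adjusted p = 0.0149) and at OBX day 7 (−1.73, adjusted p = 0.0294), and Kcnab2 102892_at at OBX day 5 (−1.48, adjusted p = 0.0499). Over all 26 alternative settings the adjusted p of these 3 began at 5.49e-08, 8.17e-08 and 8.91e-08 and was highest with this block. The block also raised the median SE over all tested probe sets to 0.31, against 0.17 without it, and 65 probe sets in all passed with it at OBX day 5, against 1578 without it. Within the second scan day, the 3 OBX day 5 arrays lay below OBX day 1 replicate 3 for all 11 probe sets lower at OBX day 5, by a mean of 0.27 to 1.36 on the log2 scale. The 3 OBX day 7 arrays lay below it for 9 of the 10 lower at OBX day 7, all but Kcnh2. These probe sets were chosen by their low signals on the same OBX arrays, and the reference is 1 array. The counts therefore do not test the part of scan day, and the share of all tested probe sets below that array was not computed. OBX day 1 replicate 3 itself differed from the mean of the OBX day 1 arrays of the first scan day by −0.33 to 0.34 over the 11. No scan day held both OBX day 5 and sham arrays, or both OBX day 7 and untreated arrays.

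**Figure D4:**
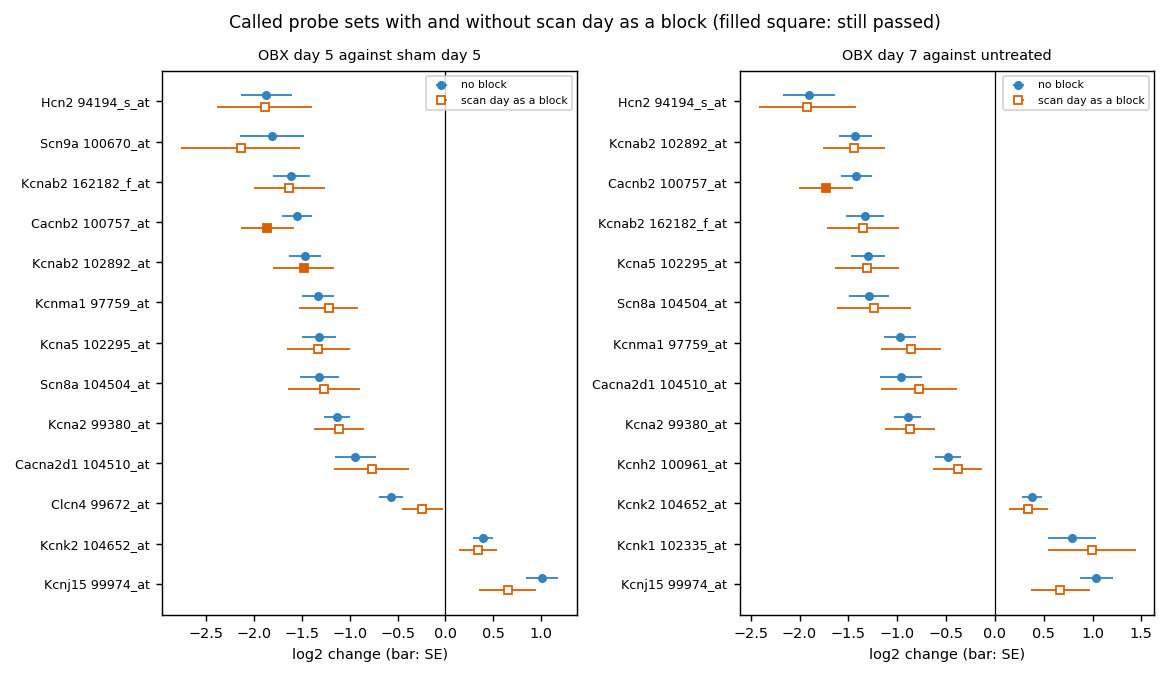
Log2 change with its SE for the channel probe sets called at OBX day 5 (left, sham as control) and at OBX day 7 (right, untreated mice as control), without a block (circles) and with scan day as a block (squares, filled where the test was still passed). The estimates keep their sign and the bars widen, so that 2 squares at OBX day 5 and 1 at OBX day 7 stay filled.

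Genes that work with these channels were read from 4 lists, to be set beside the 9.19% of all tested probe sets that fell and 11.8% that rose at OBX day 5, and 6.02% and 7.01% at OBX day 7. Of the olfactory transduction list 6 of 20 genes were tested, and 4 fell at OBX day 5 and 4 at OBX day 7. At OBX day 5 these were Omp, Adcy3, the adenylyl cyclase that makes cAMP on odour binding (−2.32 ± 0.17), Vsnl1, a neuronal calcium sensor (−2.41 ± 0.26), and Cnga2, a subunit of the cyclic nucleotide-gated channel (−1.56 ± 0.24). Of the channel partners and scaffolds list 12 of 33 genes were tested, and 6 fell at OBX day 5 and 4 at OBX day 7, with 0 higher. Among them Snap25, a vesicle fusion protein that also binds calcium channels, changed by −1.82 ± 0.18, and Fgf12, an intracellular modulator of sodium channels, by −1.37 ± 0.19 at OBX day 5. Ank1, of the ankyrin family that anchors channels to the cytoskeleton, changed by −1.06 ± 0.12 and the scaffold Dlg1 by −0.99 ± 0.19. The Ank1 probe set, 100440_f_at, has the suffix that marks probes that similar sequences can share.

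Of the ion pumps and exchangers list 13 of 34 genes were tested, and at OBX day 5 2 fell and 3 rose. Slc8a1, the sodium-calcium exchanger, had the largest fall of them (−2.37 ± 0.19, adjusted p = 4.4e-06) and was already lower at OBX day 1 (−0.93 ± 0.19). Atp2a2, a calcium pump of the endoplasmic reticulum, changed by −0.73 ± 0.12, and the sodium pump regulators Fxyd3 and Fxyd5 by 0.74 ± 0.16 and 0.82 ± 0.25. Of the list of other ion channels 19 of 64 genes were tested, and 4 fell and 5 rose at OBX day 5. Trpc1, a cation channel subunit, changed by −0.91 ± 0.15, whereas the water channels Aqp1 and Aqp4 changed by 0.74 ± 0.13 and 0.73 ± 0.14 and the gap junction protein Gjb2 by 0.73 ± 0.16. At OBX day 5 the median change was −1.70 over the transduction genes tested, −0.41 over the partners, 0.09 over the pumps and −0.01 over the other channels.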

How the data were processed

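Each array file gives 1 signal intensity per probe set, which the authors deposited on a linear scale after scaling every array to a trimmed mean that differs by less than 1 between arrays. Which array software was used is not given in the sources used here. For every signal the authors also deposited a present, marginal or absent call and its p-value, of which the call alone was used. The deposited array settings gave the scan day and fluidics run, used as technical batches.

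Of 12488 probe sets, 66 controls were left out. Platform annotation gave 10833 of the others 1 gene, 396 several and 1193 none, and no channel symbol was changed by RefSeq. Signals were raised to a floor of 1 and log2 transformed, and the 7508 probe sets with present calls on 3 or more of 15 arrays were fitted with 1 mean per group in limma 3.58.1 (R 4.3.3; variance trend; prior degrees of freedom 4.52, residual 10), after a test on simulated data. P-values are two-sided and adjusted by the Benjamini-Hochberg method over all 7508 within each comparison, with a threshold of 0.05. Arrays have no read depth, and their number limits the precision. Each tested member that passed is named with its signals, and from each list of related genes up to 4 by smallest adjusted p at OBX day 5. The members and lists were chosen with earlier results of these data known. Promoters are from the RefSeq table for GRCm38.p6; other coordinates were not used here. Alternatives covered the floor, detection filter, normalization, variance model, array weights, scan day, fluidics run, replicate block, probe sets per gene, control group and each array left out.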

Additional observations from a re-analysis of the deposited data

Results flagged for a closer look

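The change from control differed between days for 7 values, by a contrast of the same limma fit. For Kcnab2 the OBX day 5 change minus the OBX day 1 change was -1.1 by probe set 102892_at (adjusted p = 0.0356) and -1.36 by probe set 162182_f_at (adjusted p = 0.0249). The OBX day 7 change minus the OBX day 1 change was -1.19 for Hcn2 (adjusted p = 0.0189), -0.78 for Cacnb2 (adjusted p = 0.0102), -1.06 for Kcnab2 102892_at (adjusted p = 0.0022), -1.08 for Kcnab2 162182_f_at (adjusted p = 0.00418) and -0.88 for Kcna5 (adjusted p = 0.00957). In each case all 3 arrays of the later OBX group lay below all 3 OBX day 1 arrays. These values were called on the same arrays, so this is no separate support. The share of all tested probe sets that did so is not given here. Both day 7 and day 1 changes use the same untreated arrays. Scan day differed between the later groups and 2 of the 3 OBX day 1 arrays, and its part in these differences was not tested. Without OBX day 5 replicate 1 all 7 still passed, as did 4 more differences between OBX day 5 and OBX day 1 and 4 more between OBX day 7 and OBX day 1, and the Kcnab2 differences at OBX day 5 were -1.32 and -1.67.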

How the results depend on the processing

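None of 37 called changes reversed in sign under any alternative. These changes were chosen for passing on the same arrays and share probe sets and arrays. A reversal was therefore unlikely from the outset, and its absence is no separate support. Scan day as a fixed block left 0 higher and 0 lower at OBX day 1, 0 and 2 at OBX day 5, 0 and 1 at OBX day 7, 0 and 2 at OBX day 5 against OBX day 1, and 1 in the F test; 5 of the 37 changes still passed. Array weights gave 3 higher and 9 lower at OBX day 1, 5 higher at OBX day 5, 6 higher at OBX day 7 and 22 in the F test. Fluidics run as a random block, with an estimated correlation of -0.25, gave 3 higher and 9 lower at OBX day 1, 5 and 18 at OBX day 5, 7 higher at OBX day 7, 2 higher at OBX day 5 against OBX day 1, 7 higher at OBX day 7 against OBX day 5 and 27 in the F test. An effect shared by the arrays of a fluidics run would give a positive correlation, and the runs nearly followed the groups. That block therefore cannot account for a run effect, and its added calls are no support. At OBX day 1 a floor of 100, no detection filter, no variance trend or sham as control left 1 lower. With no detection filter 18 were lower at OBX day 5, since untested probe sets joined, and with no variance trend 2 were higher at OBX day 5 against OBX day 1. Over all tested probe sets, 50, 65 and 13 passed with scan day as a block at OBX days 1, 5 and 7 against their controls. For the other settings here no count over all tested probe sets was made. Whether their gains in calls are particular to channels was not tested.

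Leaving out 1 array at a time gave 0 to 2 higher and 0 to 6 lower at OBX day 1, 1 to 4 and 11 to 14 at OBX day 5, 1 to 6 and 9 to 12 at OBX day 7, 1 to 2 and 6 to 12 at OBX day 5 against OBX day 1, 0 for OBX day 7 against OBX day 5 and for sham against untreated, and 12 to 18 in the F test. At OBX day 1, 0 were lower without any 1 untreated or OBX day 1 array and 1 without any 1 sham or OBX day 7 array or OBX day 5 replicate 2. Among these fits, shares over all tested probe sets were computed only for the one without OBX day 5 replicate 1. The most higher calls against a control (2, 4 and 6) and the 6 lower at OBX day 1 came without OBX day 5 replicate 1, and the 2 higher at OBX day 5 against OBX day 1 without OBX day 5 replicate 3; the single one at OBX day 5 came without sham replicate 1 or 2 or OBX day 5 replicate 3, and at OBX day 7 without untreated replicate 2 or 3 or OBX day 7 replicate 1 or 3.

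Replicate numbers did not pair the arrays: same-numbered arrays of different groups correlated in their deviations at -0.35 to 0.37, with 8 of 30 pairs over 0.1. With a replicate block all 37 changes still passed, with 0 higher and 2 lower at OBX day 1, 2 and 11 at OBX day 5 and 3 and 10 at OBX day 7. With 3 pools a group and no read depth, changes near the threshold, such as Cacnb2 at OBX day 1 and Kcnk1 at OBX day 7, are the least settled.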

Other observations

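Some channel probe sets that did not reach the detection filter passed when it was dropped, a choice that admits probes with few or no present calls. At OBX day 5, against sham, these were Kcna6 (-2.32, adjusted p = 0.0113), Clcn1 (-1.38), Kcnj5 (-1.06), Hcn2 94195_r_at (-0.96), Kcnn1 (-0.79), Cacna1b (-0.52) and Hcn3 (-0.44). At OBX day 7, against untreated mice, these were Kcna6 (-2.97, adjusted p = 0.00398), Hcn2 94195_r_at (-0.98) and Cacna1b (-0.68). All were lower, and Clcn1, Hcn3 and Kcnn1 were present on no array. They come from 57 untested channel probe sets. The share of all probe sets that passed without the filter was not computed, so the list is not set apart from the general rate. Mean signals over the 15 arrays were 5150 for Hcn2 94195_r_at, 1773 for Hcn3, 1147 for Kcnn1 and 1089 for Cacna1b.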
